A study of Rattus norvegicus with 3 samples.

Results

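Ferritin and iron handling genes were followed in nuclei of the rat heart apex through 8 named genes, Fth1, Ftl1, Tfrc, Slc40a1, Slc11a2, Hmox1, Ireb2 and Aco1. They were found by symbol among the 22250 genes of the files, each as 1 row, with Fth1 as ENSRNOG00000022619 and Ftl1 as ENSRNOG00000031506. The list was chosen by earlier results of these data, in which Fth1 was low in cardiomyocytes of both mutants, so the values of Fth1 there are given as a description and support nothing. Each genotype (WT, BMD, DMD) gave 1 library of sorted DAPI-positive nuclei, from hearts taken at 12 months. BMD rats carry an in-frame deletion in Dmd (the allele R-BMDdel45-47) that leaves a shortened and less abundant dystrophin, and DMD rats carry the deletion R-DMDdel52 and lack the protein. The BMD line was made in Sprague Dawley rats with CRISPR, and the DMD line comes from earlier work. The number of animals behind each library is not given in the sources used here. As each genotype is a single library, genotypes were not tested against each other, and every interval covers counting error only.

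Cells take up transferrin-bound iron through the transferrin receptor (Tfrc) and move it into the cytosol through the transporter DMT1 (Slc11a2). Iron that is not used is stored in ferritin, a shell of heavy chains (Fth1), which oxidise iron, and light chains (Ftl1), and it leaves the cell through ferroportin (Slc40a1). Haem oxygenase 1 (Hmox1) frees iron from haem, a main task of macrophages that clear red cells. The iron regulatory proteins (Aco1 and Ireb2) bind ferritin and transferrin receptor transcripts and match storage to uptake, so a large part of ferritin control is at translation and is not seen in RNA counts.

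The libraries held 21609238 UMIs (unique molecular identifiers, each marking 1 captured RNA molecule) in the WT library, 21142346 in the BMD one and 19215994 in that of DMD. The deepest barcodes, in the number of nuclei the methods state per library and 24664 in all, served as nuclei, and the shallowest of a library held 513 to 546 UMIs. Pairs of libraries shared 12 to 20 barcodes among their nuclei. Levels are given as CPM, the UMIs of a gene per 1000000 UMIs summed over the nuclei of a class, with exact Poisson 95% intervals. Clusters were named after markers and are called cardiomyocyte-like, macrophage-like and so on. Scrublet called most nuclei doublets in 1 endothelial-like cluster of 429 nuclei and in 1 unnamed cluster of 545. The targeted gene Dmd had 16575 CPM for WT, 20997 CPM for BMD and 19629 CPM for DMD cardiomyocyte-like nuclei. These counts are per gene and do not show which exons were read, so they check no label. Free RNA was read from the barcodes with at most 50 UMIs, with 1575674 UMIs of WT, 633966 of BMD and 709588 of DMD.

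Fth1 was the member that stood apart in cardiomyocyte-like nuclei. The 2016 WT nuclei held 1030 Fth1 UMIs, a level of 164 CPM (155 to 175). The 1492 BMD nuclei held 178 UMIs, a level of 28.2 CPM (24.2 to 32.7), and the 1050 DMD nuclei held 146 UMIs, a level of 38.8 CPM (32.8 to 45.7). Both mutant libraries were thus far below WT, and the intervals did not overlap. On CPM plus 5, the level was 5.10-fold lower in BMD (log2 ratio -2.35, -2.55 to -2.15) and 3.87-fold lower in DMD (-1.95, -2.18 to -1.72). Of the 10039 genes with at least 50 UMIs in this class, 5.3% were lower by 1.5-fold or more for BMD and 6.19% for DMD. Higher by as much were 4.25% for BMD and 6.05% for DMD. Fth1 was the gene with the second lowest ratio in BMD and the lowest in DMD, which is the contrast that chose it. Of the 8 members, 7 passed the minimum of 50 UMIs, and Fth1 was the 1 member past 1.5-fold in either mutant. DMD was slightly above BMD, with a log2 ratio of 0.40 (0.12 to 0.68).

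The UMIs of Fth1 were spread over many nuclei. After each nucleus was thinned to 500 UMIs, at least 1 Fth1 UMI was seen in 8.88% of WT (exact binomial 95% interval 7.67 to 10.2), 1.94% of BMD (1.31 to 2.78) and 2.76% of DMD cardiomyocyte-like nuclei (1.86 to 3.94). Without thinning the shares were 34.7% for WT, 10.3% for BMD and 12.4% for DMD, at median depths of 2751, 3729 and 3197 UMIs. No WT nucleus of the class held more than 9 Fth1 UMIs, so the WT level did not rest on a few nuclei. In the nuclei above the median depth of their library the levels were 156 CPM for WT, 23.0 CPM for BMD and 30.7 CPM for DMD. In the nuclei below it they were 185, 41.6 and 59.9 CPM. The order of the libraries, WT above DMD above BMD, was the same on both sides of the median depth.

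Clustering at a finer resolution cut the cardiomyocyte-like nuclei into a pair of clusters with different shares of the libraries. A cluster led by Dhrs7c, Ky and Myh6, the main myosin heavy chain of the adult rodent heart, held 1814 WT, 389 BMD and 382 DMD nuclei. A cluster with Xirp2, Acta1 and Nppa, the atrial natriuretic peptide gene, among its leading genes held 191 WT, 1098 BMD and 655 DMD nuclei. In the Myh6 cluster Fth1 stood at 155 CPM for WT, 25.9 CPM for BMD and 36.4 CPM for DMD. In the Nppa cluster it stood at 226 CPM for WT (194 to 262), 28.7 CPM for BMD (24.3 to 33.7) and 39.0 CPM for DMD (32.0 to 47.1). WT nuclei were above both mutant libraries in either cluster. The log2 ratios were -2.37 for BMD and -1.95 for DMD within the Myh6 cluster, and -2.78 and -2.39 within the Nppa cluster.

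**Figure D1:**
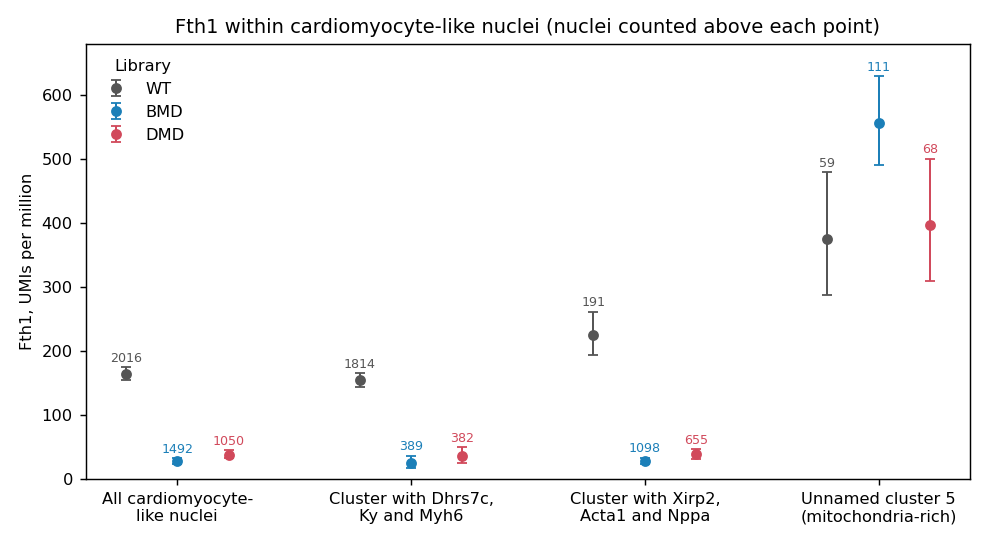
Fth1 in CPM for the whole cardiomyocyte-like class, its finer clusters and the unnamed mitochondria-rich cluster, by library. Points are sums over the nuclei counted above them and bars are exact Poisson 95% intervals, and in the first 3 sets WT sits above 150 CPM while BMD and DMD sit below 40 CPM.

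A further 238 nuclei with cardiomyocyte markers were kept out of the class as a cluster with a high median share of mitochondrial UMIs. The median was 34.7% for WT, 43.0% for BMD and 40.7% for DMD. This rule for whole clusters was set after the data were seen. Not every nucleus was rich in mitochondrial UMIs, as 35 WT, 70 BMD and 50 DMD nuclei were over 5%. Clustered and named again without nuclei over 5%, 22 WT, 39 BMD and 18 DMD nuclei of the cluster were cardiomyocyte-like. The log2 ratio of BMD under that filter is given with the alternatives. This cluster, of 59 WT, 111 BMD and 68 DMD nuclei, carried high Fth1 in every library. The levels were 375 CPM for WT (288 to 480), 557 CPM for BMD (491 to 629) and 397 CPM for DMD (310 to 501), so here BMD was the highest and WT and DMD overlapped. Counted together with the cardiomyocyte-like nuclei, it moved Fth1 to 170.0 CPM for WT, 64.3 CPM for BMD and 55.1 CPM for DMD. The log2 ratios over WT then became -1.34 for BMD and -1.54 for DMD. The distance from WT stayed beyond the counting intervals, but BMD was no longer below DMD.

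Free RNA held more Fth1 than the cardiomyocyte-like nuclei of any library. Its level was 992 CPM for WT, 429.0 CPM for BMD and 1101 CPM for DMD, so free RNA was low in BMD and slightly higher in DMD than in WT (log2 ratio 0.15, 0.02 to 0.27). Markers of other cell types set an upper value for the share of free RNA in a class. In cardiomyocyte-like nuclei the fibroblast markers gave the lowest value, 2.12% for WT, 3.38% for BMD and 3.32% for DMD. At those shares free RNA would carry 21.0 CPM of the Fth1 level for WT, 14.5 CPM for BMD and 36.6 CPM for DMD. The level beyond it was 143 CPM for WT, 13.7 CPM for BMD and 2.27 CPM for DMD. At these shares the level beyond free RNA was the larger part in WT, slightly the smaller part in BMD and the smaller part in DMD. These parts depend on the pool taken as free RNA. The pool lay on 361870 barcodes for WT, 471751 for BMD and 509584 for DMD, with fewer UMIs per barcode in the mutants. Barcodes of 51 to 100 UMIs gave shares of 1.96% for WT, 2.83% for BMD and 2.84% for DMD. The log2 ratios with either pool subtracted are given with the alternatives, and the part of free RNA was not tested. The summed CPM of the 10 macrophage markers in the class was 74.1 for WT, 66.2 for BMD and 91.8 for DMD, and all 10 were detected in each library.

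Fibroblast- and endothelial-like nuclei, the largest classes, did not have lower Fth1 in DMD. In fibroblast-like nuclei Fth1 was at 229.5 CPM for WT (216 to 243), 133 CPM for BMD (120 to 147) and 241 CPM for DMD (225 to 257). In endothelial-like nuclei it was at 213 CPM for WT (191 to 236), 130 CPM for BMD (115 to 147) and 241 CPM for DMD (222 to 261). In both classes BMD was lowest and WT and DMD overlapped. Set against WT, DMD had a log2 ratio of 0.07 (-0.06 to 0.19) in fibroblast-like and 0.18 (-0.01 to 0.36) in endothelial-like nuclei, against -1.95 in cardiomyocyte-like nuclei. Besides cardiomyocyte- and macrophage-like nuclei, Schwann-like ones were the class whose DMD log2 ratio lay below 0 with its whole interval, at 102 CPM on 12 UMIs against 302 CPM on 34 UMIs for WT. This cluster also had the B cell genes Ighm, Bank1 and Pax5 among its leading genes, and its summed Schwann markers were at 9612 CPM for WT and 5698 CPM for DMD, its T or B cell markers at 2132 and 3211 CPM. Their part in the difference was not tested. BMD was below WT in 7 classes with an interval that left out 0, and its log2 ratio ranged there from -2.35 in cardiomyocyte-like to -0.69 in endothelial-like nuclei. Free RNA of BMD was also below WT, and its part in the BMD levels was not tested. Lymphatic-like nuclei, with 226, 210.0 and 188 CPM for WT, BMD and DMD, overlapped between all libraries.

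In WT the classes with the most Fth1 were monocyte-like nuclei (493 CPM) and macrophage-like nuclei (429.6 CPM), whose intervals overlapped. Schwann-like nuclei followed at 302 CPM with an interval that overlapped both, and fibroblast-, lymphatic-, endothelial- and endocardial-like nuclei lay between 195 and 229.5 CPM without separating from each other. Pericyte- or smooth muscle-like, cardiomyocyte-like and T or B cell-like nuclei were lowest, at 166, 164 and 140 CPM. Their intervals also overlapped. In BMD and DMD the cardiomyocyte-like nuclei were lowest of the 10 classes, with the interval below that of every other class.

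**Figure D2:**
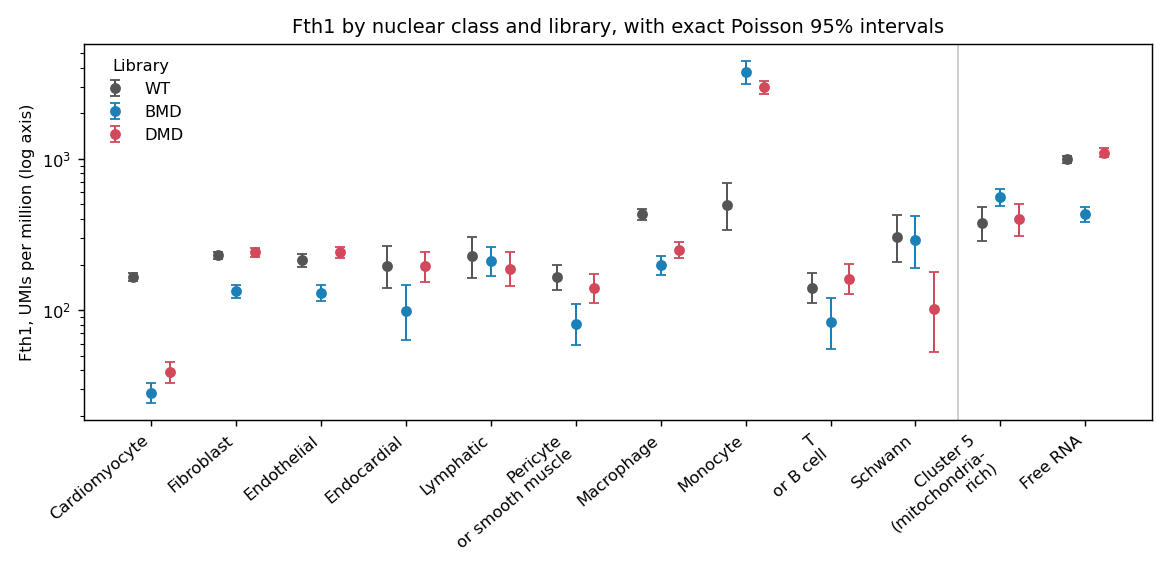
Fth1 in CPM (log axis) by class and library, with the mitochondria-rich cluster and free RNA at the right. Points are sums over all nuclei of a class and bars exact Poisson 95% intervals, and the cardiomyocyte-like nuclei of BMD (28.2) and DMD (38.8) are the lowest points.

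The small monocyte-like class took its name from a marker list that holds S100a8 and S100a9, genes of neutrophils too. It was led by S100a9, S100a8, Camp and Ngp. Camp and Ngp are neutrophil granule genes, so these nuclei may be neutrophils. The highest Fth1 level of all stood in this class. It was 493 CPM for WT (337 to 696, 32 nuclei), 3733 CPM for BMD (3124 to 4427, 32 nuclei) and 2982 CPM for DMD (2701 to 3284, 96 nuclei). Both mutant libraries were above WT here, the opposite of the cardiomyocyte-like nuclei, with log2 ratios of 2.91 for BMD (2.35 to 3.50) and 2.59 for DMD (2.07 to 3.14). The summed monocyte markers moved the same way, at 8116 CPM for WT, 36571 CPM for BMD and 42119 CPM for DMD. The cardiomyocyte markers in these nuclei were at 13707, 5657 and 6643 CPM. Scrublet called 25% of the class doublets for WT, 0% for BMD and 28.1% for DMD, and free RNA could make up to 15.9%, 22.5% and 26.5% of their UMIs, which would carry 158, 96.6 and 292 CPM of Fth1. The WT nuclei thus carried fewer UMIs of their own markers, and the part of this and of the doublets in the difference was not tested.

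Ftl1, the light chain, did not follow Fth1 in cardiomyocyte-like nuclei. Its level was 15.6 CPM for WT (12.7 to 19.1), 20.3 CPM for BMD (16.9 to 24.1) and 25.0 CPM for DMD (20.2 to 30.6). WT was the lowest library, with DMD above it by a log2 ratio of 0.54 (0.20 to 0.87) and BMD by 0.29 (-0.01 to 0.59). The higher DMD level stood in the Myh6 cluster, with 14.5 CPM for WT and 32.4 CPM on 32 UMIs for DMD, where Scrublet called 9.69% of DMD and 1.05% of WT nuclei doublets. In the Nppa cluster the DMD log2 ratio of Ftl1 was -0.07 (-0.69 to 0.58). Marker lists of other cells went both ways in the DMD cardiomyocyte-like nuclei. Among the higher ones, fibroblast markers were at 195 CPM for WT, 145 CPM for BMD and 356 CPM for DMD and monocyte markers at 59.2, 104 and 161 CPM. Pericyte or smooth muscle markers were lower, at 1016 CPM for WT and 718 CPM for DMD. So were lymphatic markers, at 246 and 176 CPM, and adipocyte markers, at 93.4 and 81.9 CPM. Clustered again without doublets, the Ftl1 log2 ratio of DMD was 0.51, and it was 0.56 with free RNA subtracted. In fibroblast-like nuclei Ftl1 was at 70.2 CPM for WT, 33.1 CPM for BMD and 65.1 CPM for DMD, and in endothelial-like nuclei at 47.5, 23.0 and 40.1 CPM. Low values in BMD alone, the order Fth1 also took in these classes, were therefore seen for the light chain as well. Free RNA held 174 CPM of Ftl1 for WT, 97.8 CPM for BMD and 158 CPM for DMD.

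The count of Fth1 UMIs per Ftl1 UMI within a library does not depend on the total to which both are scaled. In cardiomyocyte-like nuclei it was 10.5 for WT (exact binomial 95% interval 8.54 to 13.1), 1.39 for BMD (1.1 to 1.76) and 1.55 for DMD (1.19 to 2.03). In free RNA it was 5.70 for WT (5.01 to 6.51), 4.39 for BMD (3.32 to 5.88) and 6.97 for DMD (5.71 to 8.58). The WT cardiomyocyte ratio was thus above that of its free RNA, and the BMD and DMD ratios were below theirs. Fibroblast-like nuclei, with 3.27, 4.02 and 3.69 for WT, BMD and DMD, showed no such gap between the libraries. Monocyte-like nuclei had 8 for WT (2.84 to 31.1), 14.7 for BMD (7.50 to 32.8) and 18.8 for DMD (12.2 to 30.3). Their Ftl1 UMIs were 4, 9 and 22, and both mutant values lay above the WT cardiomyocyte ratio. Schwann-like nuclei of BMD lay above it too, at 13.5 on 2 Ftl1 UMIs (3.39 to 117). The mitochondria-rich cluster had 2.86, 3.52 and 4.73, with overlapping intervals. Ferritin has near-identical copies in the rat genome, and a RefSeq entry, LOC100360087, lists Ftl1 among its synonyms. Reads that match several copies could be dropped or split in counting, so the ratio does not compare the 2 genes. Such counting could also differ between the Cell Ranger versions named for WT and for the mutants. That difference cannot be told apart from genotype and was not tested.

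**Figure D3:**
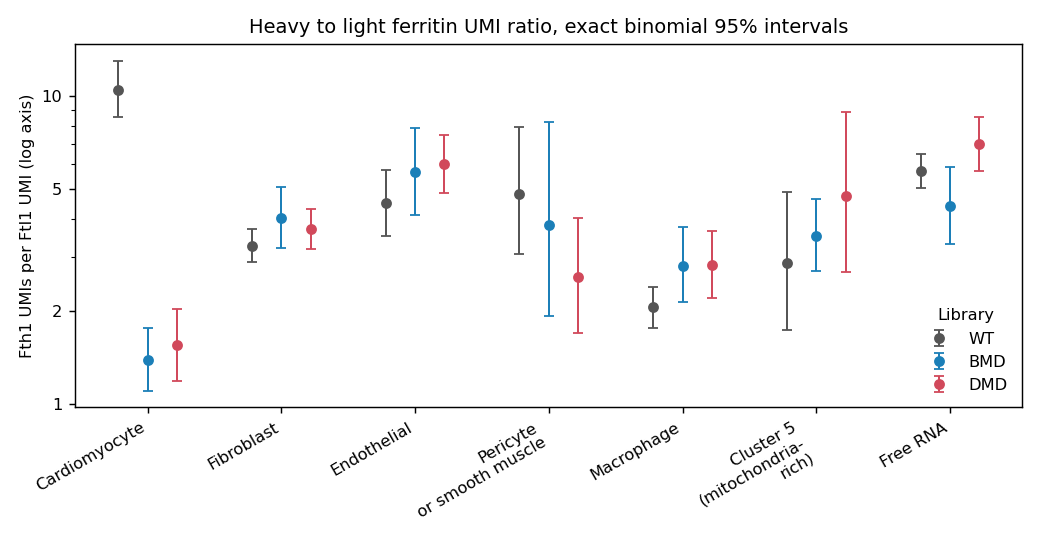
Fth1 UMIs per Ftl1 UMI (log axis) in cardiomyocyte-, fibroblast-, endothelial-, pericyte- or smooth muscle- and macrophage-like nuclei, the mitochondria-rich cluster and free RNA, by library. Bars are exact binomial 95% intervals. Among the points shown, the WT cardiomyocyte-like nuclei (10.5) lie highest and the BMD (1.39) and DMD (1.55) ones lowest. Monocyte-like nuclei, which had higher ratios in both mutants, are not shown.

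Among the uptake genes, Tfrc was higher in cardiomyocyte- than in fibroblast- or endothelial-like nuclei of every library. In cardiomyocyte-like nuclei it did not separate the genotypes. Cardiomyocyte-like nuclei held 85.9 CPM for WT (78.8 to 93.5), 93.1 CPM for BMD (85.7 to 101) and 84.6 CPM for DMD (75.5 to 94.4), and all 3 intervals overlapped. The log2 ratio over WT was 0.11 for BMD (-0.05 to 0.27) and -0.02 for DMD (-0.21 to 0.17). Fibroblast-like nuclei held from 6.40 CPM for WT to 12.7 CPM for DMD, and endothelial-like nuclei from 6.99 CPM for BMD to 10.8 CPM for DMD. In fibroblast-like nuclei above the median depth DMD was at 10.2 CPM (6.53 to 15.2) and WT at 5.47 CPM (3.24 to 8.64). Below the median depth DMD was at 17.9 CPM (10.9 to 27.7) and WT at 8.37 CPM (4.46 to 14.3). Tfrc in fibroblast-like nuclei was thus higher in DMD than in WT on both sides of the median depth, with overlapping intervals on each. The UMIs of Tfrc in cardiomyocyte-like nuclei were many times those that free RNA could carry, which was 1.64 CPM for WT, 2.03 CPM for BMD and 2.15 CPM for DMD. Slc11a2 did not separate the libraries in cardiomyocyte- or fibroblast-like nuclei. Its level in cardiomyocyte-like nuclei was 41.8 CPM for WT, 37.8 CPM for BMD and 37.5 CPM for DMD. Its log2 ratio was -0.13 for BMD (-0.36 to 0.10) and -0.14 for DMD (-0.41 to 0.13). Fibroblast-like nuclei had 36.5, 30.4 and 29.4 CPM of Slc11a2, with log2 ratios of -0.23 (-0.56 to 0.09) and -0.27 (-0.58 to 0.04).

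The iron regulatory proteins were also near level in cardiomyocyte-like nuclei. Ireb2 was at 74.1 CPM for WT, 83.6 CPM for BMD and 87.5 CPM for DMD, a log2 ratio of 0.16 (-0.01 to 0.34) for BMD and 0.23 (0.03 to 0.42) for DMD. Aco1 went the other way, at 88.9, 79.5 and 75.5 CPM, with -0.15 (-0.32 to 0.01) for BMD and -0.22 (-0.42 to -0.03) for DMD. The DMD intervals of both left out 0, and neither gene came near a 1.5-fold difference. In macrophage-like nuclei Ireb2 was at 115 to 145 CPM and Aco1 at 78.1 to 89.1 CPM, with overlapping intervals over the libraries.

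The exporter Slc40a1 (ENSRNOG00000049995) was listed at 0 in the nuclei and in the free RNA of every library. For macrophage-like nuclei, a cell type known to export iron through ferroportin, a count of 0 allows up to 2.47 CPM for WT, 2.96 CPM for BMD and 2.97 CPM for DMD (3 UMIs per library). Since a row at 0 over all nuclei can also come from the gene model used for counting, export through ferroportin could not be read from these files. Of the other genes of export, Heph and Cp, which oxidise iron as it leaves the cell, were both counted and are given with the macrophage-like nuclei.

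Hmox1 was a gene of macrophage-like nuclei. Its level there was 101 CPM for WT (83.5 to 120), 44.4 CPM for BMD (32.4 to 59.3) and 66.3 CPM for DMD (51.3 to 84.1). WT was highest, BMD lowest, and the DMD interval overlapped that of WT narrowly. The log2 ratio was -1.1 for BMD (-1.57 to -0.64) and -0.57 for DMD (-0.99 to -0.16), which in DMD is just short of 1.5-fold. After thinning, a Hmox1 UMI was seen in 5.0% of these nuclei for WT (3.58 to 6.77), 1.57% for BMD (0.754 to 2.86) and 3.28% for DMD (1.99 to 5.08), so DMD overlapped WT. In cardiomyocyte-like nuclei Hmox1 was low, at 6.55 CPM for WT, 9.84 CPM for BMD and 10.9 CPM for DMD. Its log2 ratio was 0.36 for BMD (0.002 to 0.71) and 0.46 for DMD (0.05 to 0.87), both short of 1.5-fold. The ratios were 0.53 and 0.82 in the Myh6 cluster and -0.05 and -0.02 in the Nppa cluster. The mitochondria-rich cluster had 35.7 CPM for WT (13.1 to 77.7), 121 CPM for BMD (91.7 to 158) and 39.2 CPM for DMD (15.7 to 80.7), so BMD was above the other two.

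**Figure D4:**
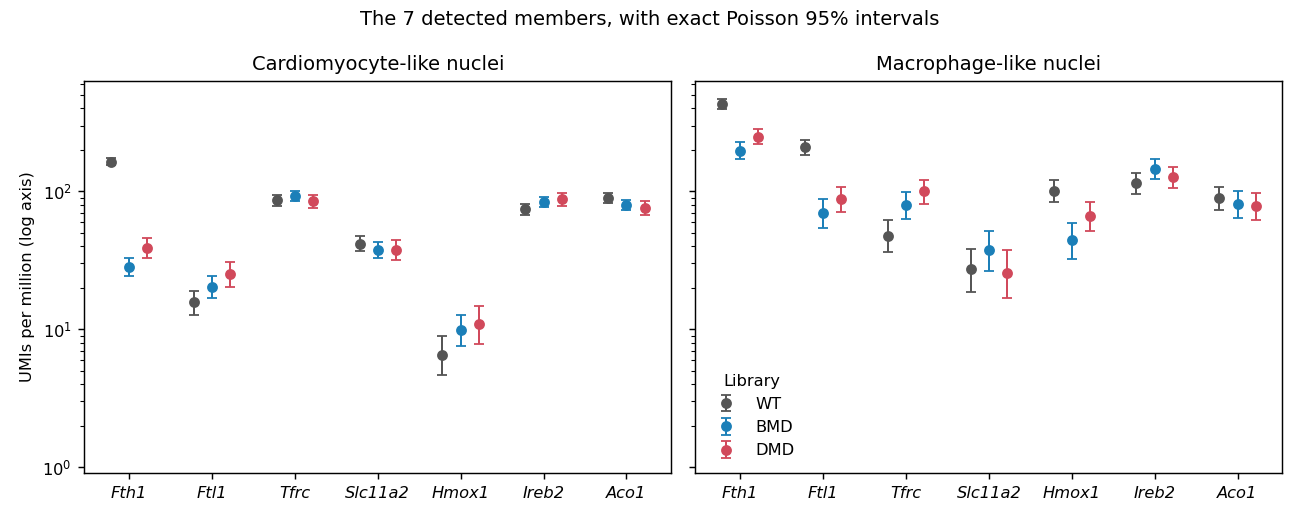
Levels of the 7 detected members in CPM (log axis) in cardiomyocyte-like and macrophage-like nuclei, by library. Points are sums over the nuclei of a class and bars exact Poisson 95% intervals. In cardiomyocyte-like nuclei Fth1 is the only member whose intervals in both mutants lie apart from that of WT (164). In macrophage-like nuclei the intervals of Fth1 and Ftl1 lie lower and that of Tfrc higher in both. Hmox1 is also lower in both there, with the DMD interval overlapping that of WT.

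Macrophages take iron from red cells and store or release it, and 3 members differed by 1.5-fold or more from WT in both mutants in the macrophage-like nuclei (780 for WT, 638 for BMD and 579 for DMD). Fth1 was at 429.6 CPM for WT (393 to 468), 197 CPM for BMD (171 to 226) and 249 CPM for DMD (219 to 282). Ftl1 was at 208.6 CPM for WT (184 to 236), 70.0 CPM for BMD (54.7 to 88.3) and 88.0 CPM for DMD (70.7 to 108). Both ferritin chains were highest in WT, without overlap. The median mitochondrial share of these nuclei was also highest in WT, at 2.80%, against 0.764% for BMD and 1.18% for DMD. The nuclei were also clustered and named again without those over 5% mitochondrial UMIs. Fth1 in macrophage-like nuclei then stood at 388 CPM for WT, 170.1 CPM for BMD and 187 CPM for DMD, and Ftl1 at 144, 62.2 and 68.9 CPM. In the class as first named, the log2 ratio of Fth1 was -1.1 for BMD and -0.77 for DMD, and that of Ftl1 was -1.51 and -1.20. For DMD, Fth1 was short of 1.5-fold in the deeper nuclei (-0.58) and in the Spp1 cluster described further on (-0.58), and Ftl1 when clustered at the finer resolution (-0.38). Of the 8445 genes with at least 50 UMIs in this class, 9.71% were lower by 1.5-fold or more for BMD and 7.22% for DMD, while 5.02% and 8.31% were higher. Of the 7 members measured, BMD had 3 lower (Fth1, Ftl1 and Hmox1) and 1 higher (Tfrc), and DMD had 2 lower and 1 higher. In both mutants 2 were lower and 1 higher, beside 3.3% and 2.21% of all genes.

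Tfrc was higher in the macrophage-like nuclei of both mutants, with 47.8 CPM for WT (36.3 to 61.8), 79.8 CPM for BMD (63.4 to 99.2) and 99.9 CPM for DMD (81.4 to 121). The log2 ratio was 0.68 for BMD (0.22 to 1.15) and 0.99 for DMD (0.55 to 1.43). A single DMD nucleus held 27 of the 101 Tfrc UMIs. Without the nucleus of most Tfrc UMIs in each library, the levels were 46.4 CPM for WT, 77.5 CPM for BMD and 73.5 CPM for DMD, and the log2 ratio was 0.68 for BMD and 0.61 for DMD (0.14 to 1.08). At least 1 Tfrc UMI was seen after thinning in 2.05% of nuclei for WT, 2.98% for BMD and 3.45% for DMD, and these intervals overlapped. In nuclei above the median depth Tfrc was at 47.4 CPM for WT, 75.9 CPM for BMD and 116 CPM for DMD. Below the median depth it was at 48.9 CPM (27.9 to 79.4), 91.2 CPM (58.4 to 136) and 49.4 CPM (25.5 to 86.3). In the shallower nuclei DMD, on 12 UMIs, was thus level with WT.

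Doublet calls and free RNA were more frequent in macrophage-like than in cardiomyocyte-like nuclei. Scrublet called 16.8% of WT, 11% of BMD and 26.1% of DMD macrophage-like nuclei doublets. Clustered and named again without them, the macrophage-like nuclei held 606 CPM of Fth1 for WT, 235 CPM for BMD and 336 CPM for DMD. The log2 ratio of Fth1 was then -1.35 for BMD and -0.84 for DMD. Ftl1 then had -1.66 and -1.46, and Tfrc 0.70 and 1.69, the latter with the DMD nucleus of 27 Tfrc UMIs, which was not called a doublet, still included. The lowest of 3 marker lists put free RNA at up to 23.4% for WT, 19.1% for BMD and 27.9% for DMD. At those shares it would carry 233 CPM of Fth1 for WT, 82.1 CPM for BMD and 307 CPM for DMD, which in DMD is more than the whole level. For Ftl1 it would carry 40.8, 18.7 and 44.1 CPM, under the levels seen. With free RNA subtracted at these shares, the log2 ratio of Ftl1 was -1.71 for BMD and -1.77 for DMD, that of Fth1 -0.83 for BMD, and DMD had no Fth1 left. All 10 macrophage markers were detected in every library, and their sum was 4304 CPM for WT, 5081 CPM for BMD and 4355 CPM for DMD. The haemoglobin receptor gene Cd163, at 549, 579 and 575 CPM, had overlapping intervals.

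The finer clustering cut the macrophage-like nuclei too, and the pieces differed in ferritin. A cluster led by F13a1, Cd163 and Mrc1 held 46.5% of the WT, 74.5% of the BMD and 66.0% of the DMD nuclei of the class. A cluster led by Spp1, with Gpnmb and Fcnb among its leading genes, held 40.5%, 16.3% and 23.5%. In the Cd163 cluster Fth1 was at 340 CPM for WT (293 to 392), 195 CPM for BMD (163 to 231) and 215 CPM for DMD (179 to 255). In the Spp1 cluster it was at 735 CPM for WT (653 to 824), 332 CPM for BMD (246 to 440) and 490.2 CPM for DMD (395 to 601). The Spp1 cluster, with 316 WT, 104 BMD and 136 DMD nuclei, thus had more Fth1 than the Cd163 cluster, with 363, 475 and 382. WT was the highest library within both. A further, small cluster led by Wdfy4 and Flt3 held 57 WT, 28 BMD and 26 DMD nuclei. Its Fth1 was at 87.1 CPM for WT (37.6 to 172), 70.2 CPM for BMD (14.5 to 205) and 124 CPM for DMD (45.5 to 270.1), on 3 to 8 UMIs, and WT was not the highest there.

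The light chain differed more between the pieces. In the Cd163 cluster the log2 ratio of Ftl1 was -0.70 for BMD (-1.23 to -0.17) and -0.39 for DMD (-0.90 to 0.12), so DMD did not separate from WT. In the Spp1 cluster Ftl1 stood at 435 CPM for WT, 129 CPM for BMD and 149 CPM for DMD, with log2 ratios of -1.72 and -1.51. Tfrc in the Cd163 cluster was at 47.0 CPM for WT, 88.4 CPM for BMD and 59.0 CPM for DMD. In the Spp1 cluster 52 Tfrc UMIs of DMD lay in 9 of 136 nuclei, against 15 UMIs in 14 of 316 nuclei in WT. The nucleus with 27 Tfrc UMIs was among the 9, and without it the DMD nuclei of the Spp1 cluster held 25 UMIs. Without the nucleus of most Tfrc UMIs in each library, Tfrc in the Spp1 cluster was at 136 CPM for DMD (88.0 to 201). WT then stood at 32.8 CPM (17.5 to 56.1) and BMD at 20.8 CPM (4.29 to 60.8) on 3 UMIs. In the Cd163 cluster the levels were then 43.7, 84.4 and 54.3 CPM for WT, BMD and DMD.

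A list of 65 genes of iron uptake, storage, export, sensing and haem handling set the members among their pathway, and 64 of them were in the files. In cardiomyocyte-like nuclei 48 had at least 50 UMIs. Of these, 2 were lower by 1.5-fold or more in BMD and 0 were higher, and in DMD 4 were lower and 2 higher. As shares of 48 these stand beside 5.3% and 4.25% of all genes in BMD and 6.19% and 6.05% for DMD, and the median log2 ratio of the list was -0.05 for BMD and 0.01 for DMD, against -0.06 and -0.03 over all genes. The genes lower in both were Fth1 and Steap3, 2 of 48 beside 2.59% of all genes lower and 2.45% higher in both. Steap3 encodes a ferric reductase of the transferrin cycle. Steap3 was at 17.9 CPM for WT (112 UMIs), 10.2 CPM for BMD (64 UMIs) and 4.79 CPM for DMD (18 UMIs), with log2 ratios of -0.59 and -1.23. Steap2 and Flvcr2 were lower and Lrp1 and Alas2 higher in DMD alone, genes named after their values were seen. Lrp1 was at 7.18, 6.82 and 15.2 CPM for WT, BMD and DMD, against 355, 290 and 438 CPM in free RNA, whose part was not tested. Alas2 rested on 14, 19 and 23 UMIs. Ncoa4, the receptor that carries ferritin to its breakdown, was at 33.5 CPM for WT, 29.5 CPM for BMD and 32.2 CPM for DMD.

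In macrophage-like nuclei 47 genes of the list were measured, of which 9 were lower and 3 higher in BMD, and 7 were lower and 5 higher in DMD. The shares of all genes were 9.71% and 5.02% for BMD and 7.22% and 8.31% for DMD, and the median of the list was -0.10 and -0.03, against -0.01 and 0.02 over all genes. The genes lower in both mutants were Fth1, Ftl1, Steap3, Slc48a1 and Slc7a11, 5 of 47 beside 3.3% of all genes. Slc48a1, which moves haem out of the lysosome, was at 28.0, 10.8 and 13.8 CPM for WT, BMD and DMD on 11 to 34 UMIs. Slc7a11, the cystine importer that feeds glutathione, was at 66.8 CPM for WT, 34.5 CPM for BMD and 14.8 CPM for DMD. Its log2 ratio was -0.86 for BMD (-1.39 to -0.34) and -1.86 for DMD (-2.50 to -1.21), the lowest of the list in DMD.

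The genes higher in both mutants were Tfrc and Cp, 2 of 47 beside 2.21% of all genes. Cp, which encodes ceruloplasmin, a copper ferroxidase of iron export, was at 84.9 CPM for WT, 303 CPM for BMD and 189 CPM for DMD. Its log2 ratio was 1.77 for BMD (1.46 to 2.09) and 1.11 for DMD (0.77 to 1.45). Heph, the membrane-bound relative of ceruloplasmin, was at 134, 191 and 207 CPM, with 0.50 for BMD and 0.61 for DMD. Bmp6, which induces hepcidin in the liver, differed in opposite directions, with -0.85 for BMD and 0.71 for DMD. Each of these values compares a mutant with the same WT library, so BMD and DMD are not independent of each other.

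**Figure D5:**
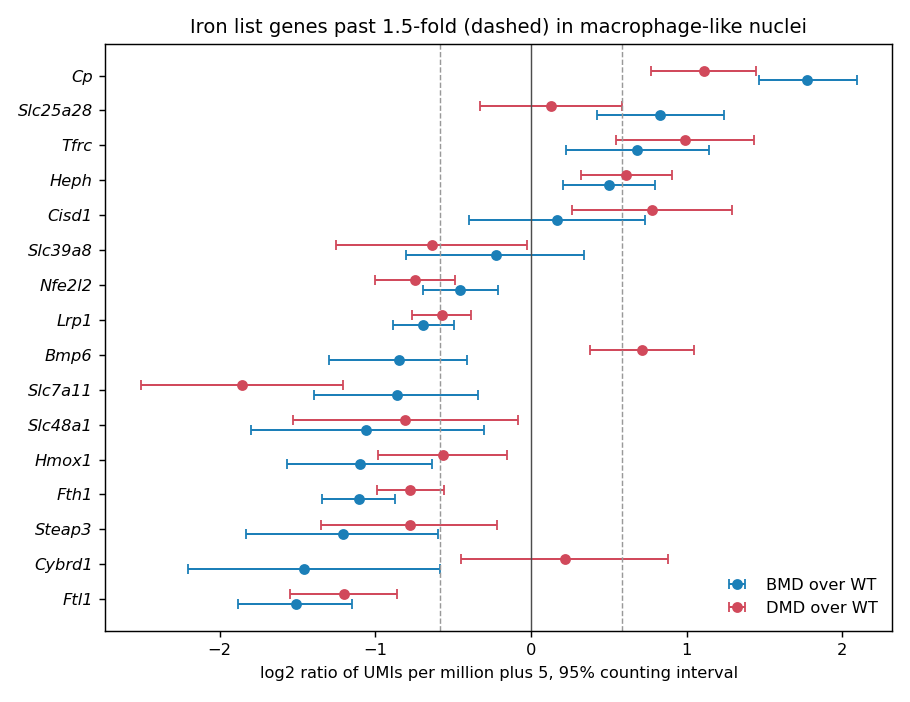
The log2 ratio over WT, on CPM plus 5, of the 16 iron list genes past 1.5-fold in at least 1 mutant in macrophage-like nuclei. Bars are 95% counting intervals and dashed lines mark 1.5-fold, and Ftl1, Fth1, Steap3, Slc48a1 and Slc7a11 lie left and Tfrc and Cp right of the lines in both mutants. The share of all genes past 1.5-fold in at least 1 mutant was not counted.

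The genes most like each member were sought by the Pearson correlation of log2 levels over 24 points, 8 classes in 3 libraries, among 11331 genes. The points share libraries and differ in depth, so the values are a description. For Fth1 the 5 genes were Lamp1 (r = 0.86), Rpl35, Vat1, Psap and Ahnak (0.81 each). For Ftl1 they were Grn (0.85), Fam20c (0.85) and Ctsb (0.84), and for Hmox1 Lgmn (0.90), Tgfbi (0.87) and Igsf6 (0.87). Tfrc was most like Atp1b1 (0.92), Oxr1 (0.91) and Lrrc20 (0.88). Ireb2 was most like Gpbp1 (0.89), Khdrbs1 (0.85) and Med12 (0.84), and Aco1 most like Arhgap10 (0.87), Hnrnpdl (0.81) and Asah1 (0.80). Slc11a2 had the weakest match, with Commd6 (0.72), Bpnt1 (0.71) and Usp38 (0.68).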

How the data were processed

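The authors deposited raw UMI counts per gene and barcode, not filtered to nuclei, from 10x Genomics libraries of sorted heart nuclei. The labels name the 3′ v3.1 kit, while a passage of the study speaks of a 5′ one. Here 3′ counting was assumed. Per the file headers, the BMD and DMD files and the aggregate that holds WT name different Cell Ranger versions. Counting that differed by version cannot be told apart from genotype. The submitters' processing notes list Cell Ranger and rn6. Whether introns were counted is not given in the sources used here. WT was read from its barcodes in the aggregate, and the mutants from the file of each.

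Nuclei were the barcodes of most UMIs, in the number the methods state. They were clustered with scanpy 1.11.5 and igraph 0.11.9 (2000 variable genes, 15 neighbours, Leiden resolution 0.5) without mitochondrial genes, sex-linked genes, the members and the iron list. A cluster took the name of a marker list of which at least 3 genes were raised 2 times, on at least 10 UMIs. The rules that settled rival names and left clusters over 10% median mitochondrial UMIs unnamed were set after the data were seen. Doublets were kept. Counts were summed per class and library, scaled to CPM, and compared as log2 ratios of CPM plus 5 (SciPy 1.17.1). The interval of a log2 ratio combines the exact Poisson intervals of both counts. The functions were tested on simulated data. Genes with at least 50 UMIs in a class were counted.

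The free RNA share of a class was the lowest ratio, over 3 foreign marker lists, of their CPM in the class to that in free RNA. Doublets raise it. The members and lists were chosen with earlier results of these data known. The genes named are the 8 members, list genes past 1.5-fold in the same direction in both mutants, and the 5 genes most like Fth1 or 3 most like another member, among genes with at least 200 UMIs and in classes with at least 100000 UMIs per library. Exceptions are named as such or shown for their role. Alternatives changed the choice of nuclei, doublets, mitochondrial filter, resolution, scaling (TMM of edgeR 4.0.16), pseudocount, depth and free RNA. Where the number of nuclei, doublets, mitochondrial filter or resolution changed, clustering and naming were repeated, so the members of a class could change too.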

Additional observations from a re-analysis of the deposited data

Results flagged for a closer look

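Fth1 went past 1.5-fold in opposite directions in different classes, and the difference between the classes was not tested. In BMD the log2 ratio over WT was 2.91 in monocyte-like nuclei against -2.35 in cardiomyocyte-like, -1.1 in macrophage-like, -0.99 in pericyte- or smooth muscle-like, -0.95 in endocardial-like, -0.76 in fibroblast-like, -0.71 in T or B cell-like and -0.69 in endothelial-like nuclei. In DMD it was 2.59 in monocyte-like nuclei against -1.95 in cardiomyocyte-like and -0.77 in macrophage-like nuclei, with -1.52 in the few Schwann-like nuclei. The 32 WT monocyte-like nuclei held 13707 CPM of cardiomyocyte markers against 8116 CPM of monocyte markers. The part of this in the monocyte-like ratios was not tested. The unnamed mitochondria-rich cluster, which enters no comparison of a named class, held 557 CPM of Fth1 and 121 CPM of Hmox1 in BMD, both above the WT interval of the same cluster.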

How the results depend on the processing

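With 1 library per genotype no replicate could be left out, and no paired analysis was possible because each genotype had a single library. The 17 alternatives for Fth1 in cardiomyocyte-like nuclei include all nuclei of the library, which mix every class and are not a level of this class. As this contrast chose Fth1, the values are a description. The log2 ratio was below 0 under all 17 in both mutants, but only by -0.027 in DMD over all nuclei. In BMD it was past 1.5-fold in all of them, with values from -2.98 to -0.90, and in DMD in 16, with values from -4.37 to -0.027. For BMD (-2.35 as reported) it moved to -2.98 with free RNA subtracted, -2.69 with that of barcodes of 51 to 100 UMIs subtracted, -2.13 as the mean over nuclei, -1.47 without nuclei over 5% mitochondrial UMIs and -0.90 over all nuclei of the library. For DMD (-1.95 as reported) the same subtractions gave -4.37 and -2.77, and all nuclei gave -0.027. Alternatives chosen after seeing the data gave -1.34 in BMD and -1.54 in DMD with the mitochondria-rich cluster included, and -2.78 and -2.39 in the Nppa cluster alone. With the filter at 5% mitochondrial UMIs, 39 BMD, 22 WT and 18 DMD nuclei of the mitochondria-rich cluster were in the class. The causes of these changes were not tested.

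In macrophage-like nuclei Fth1 stayed past 1.5-fold in BMD under all 16 alternatives (-1.37 to -0.79), and in DMD Fth1 and Ftl1 did so under 13 of 16 each, with all nuclei of the library at -0.027 and -0.066. All nuclei of the library, counted among these alternatives too, mix every class and are not a level of macrophage-like nuclei. Over all nuclei the log2 ratio of Tfrc was -0.079 in DMD. Within macrophage-like nuclei Tfrc reversed to -0.41 in BMD in the Spp1 cluster alone, which held 4 Tfrc UMIs in BMD. Counts of iron list genes past 1.5-fold were small and moved. The share of all genes past 1.5-fold was counted as reported only and not under the alternatives. The counts that follow are thus a description and are not set against all genes. In cardiomyocyte-like nuclei the 2 lower genes of BMD became 1 without doublets, under TMM scaling, with counts from the aggregate and above the median depth. The 0 higher genes of BMD became 1 with barcodes of at least 500 or 1000 UMIs, TMM scaling, the mean over nuclei, a pseudocount of 1 or the aggregate, 2 above the median depth, and 3 without mitochondria-rich nuclei or with that cluster included. The 2 higher genes of DMD became 1 without doublets, with free RNA subtracted or with that cluster included, 4 with the free RNA of 51 to 100 UMIs subtracted and 7 with a pseudocount of 1. In macrophage-like nuclei the 3 higher genes of BMD became 5 without mitochondria-rich nuclei, with free RNA subtracted and as the mean over nuclei. The 7 lower genes of DMD became 11 without doublets or with free RNA subtracted and 12 with the free RNA of 51 to 100 UMIs subtracted, and the 5 higher genes became 8 without doublets, 3 at resolution 1 and 8 with the free RNA of 51 to 100 UMIs subtracted.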

Other observations

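The unnamed clusters add ferritin values that enter no comparison. A DMD cluster of 166 nuclei with S100a8 and haemoglobin genes, of which WT had 3 and BMD 5 nuclei, held 1188 CPM of Fth1 (1016 to 1380) and 265 CPM of Ftl1 (188 to 364). The cluster that Scrublet called mostly doublets, led by Scel and Slc39a8, held 160 CPM of Fth1 for WT, 45.4 CPM for BMD and 75.5 CPM for DMD. Fbxl5, the ubiquitin ligase subunit that degrades Ireb2, is on the iron list and was singled out after its values were seen. It was at 693 CPM for WT, 1725 CPM for BMD and 1206 CPM for DMD monocyte-like nuclei, against 85.8 to 98.4 CPM in cardiomyocyte-like nuclei.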
